A study of Mus musculus with 15 samples.

Results

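The comparison described here was maternal arginine vasopressin (AVP) against saline vehicle in the dorsal forebrain of female fetuses. It comprised 7 of the 15 libraries of the series, chosen by their treatment and sex labels: 3 AVP females and 4 vehicle females. The other 8 libraries were 4 AVP males and 4 vehicle males. All were C57BL/6J fetuses at embryonic day 18 (E18), whose dams carried a subcutaneous minipump that delivered AVP or saline from before mating until collection. The infusion models preeclampsia, a hypertensive disease of pregnancy, and the question was which transcripts differed in the cortical precursor of the exposed daughters. AVP was given to the dam, and the labels give no fetal dose. A further AVP female that the study set aside for high variance was not analysed here. Per the paper the fetuses within a group came from separate litters, but no label ties a fetus to its litter, so litter could not be modelled. The p-values measure the spread between these samples.

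The E18 dorsal forebrain holds radial glia, intermediate progenitors and newborn cortical neurons. It is covered by the meninges, sheets of fibroblasts that lay down collagen and the outer basement membrane and that secrete retinoic acid and BMPs. Vessels enter from the meninges, and border macrophages live along both, apart from the microglia inside the tissue. Red cells in the vessels bring globin mRNA with them. In bulk tissue, fewer cells of a type cannot be told apart from less RNA per cell.

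Expression is given in TPM, a share of a library's transcripts corrected for transcript length, summed over the transcripts of each gene. The sequencing depth behind a TPM value is unknown, so no counting interval was given. Fold changes are differences of log2(TPM + 0.5), which makes differences at low TPM look smaller. Genes that reached 1 TPM in 50% or more of the 7 libraries were kept and tested with limma, and a call needed an adjusted p under 0.05. Of 15132 genes tested, 0 passed (0% called) and the smallest adjusted p was 0.998. Without adjustment, 354 genes were higher with AVP at p under 0.05 (2.34%) and 329 were lower (2.17%). As a description that needs no variance model, genes were also counted whose 3 AVP values all lay above or all below the 4 vehicle values. There were 421 such genes on the higher side (2.78%) and 419 on the lower side (2.77%). With quantile normalization those counts were 489 and 318. Whatever their p, 5578 genes were higher with AVP (36.9%) and 9554 were lower. These shares over all genes, and those without overlap, are the ones to set beside the list counts from all 7 libraries. Nothing below passed the adjusted threshold, and no direction given for a gene is a call.

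The 7 libraries correlated at 0.956 to 0.972 (Pearson, across genes). Xist, the transcript that silences an X chromosome in females, stood at 174 to 294 TPM in them, and 4 Y-linked genes summed to at most 1.01 TPM. Transcripts of mitochondrial genes took 4.67% to 8.15% of a library and annotated microRNA genes 6.28% to 12.7%. Among AVP libraries, 2 stood apart from the rest in how level followed gene length. Protein-coding genes were cut into 5 equal groups by length. In the group of longest genes, with a median length of 5441 nt, the median deviation from the mean of the 7 libraries was 0.27 on the log2 scale in AVP female 2. It was -0.31 in AVP female 3, and between -0.08 and 0.08 in the other 5 libraries. In the group of shortest genes, with a median of 1084 nt, all 7 libraries lay between -0.03 and 0.08. Long genes therefore stood highest in 1 AVP library and lowest in another.

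**Figure D1:**
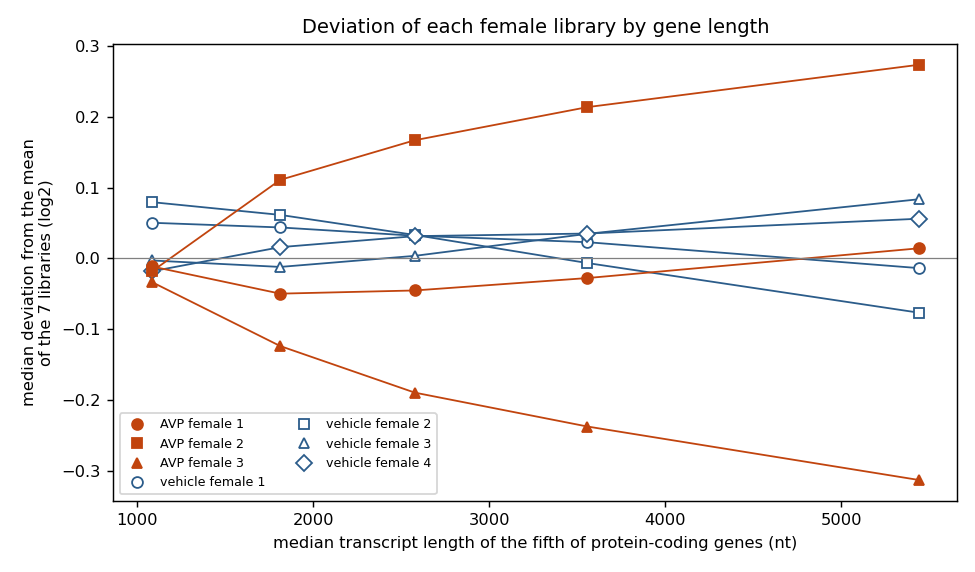
Median deviation of each of the 7 female libraries from their mean (log2, y axis) in 5 equal groups of protein-coding genes, placed at the group's median transcript length in nt (x axis). Filled red symbols are AVP females and open blue symbols are vehicle females. AVP female 2 climbs to 0.27 and AVP female 3 drops to -0.31 at the longest genes, while the other 5 libraries stay between -0.08 and 0.08.

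Among the kinds of lists drawn up here, the matrix and meningeal lists had the largest share of genes without overlap. These 7 lists held 143 genes, of which 127 were tested and 118 had at least 1 TPM in all 7 libraries. Of the 127, 112 were higher with AVP and 15 were lower, with a median log2 fold change of 0.43 against -0.05 over all genes tested. Their AVP and vehicle libraries did not overlap for 52 genes, all higher with AVP (40.9%, against 2.78% of all genes), and for 0 lower. At an unadjusted p under 0.05 there were 57 higher (44.9%, against 2.34%) and 0 lower, and none passed the adjusted threshold. The vessel lists were higher by a median of 0.29 over 43 genes tested, with 10 not overlapping on the higher side (23.3%). The neural lists held 253 genes, of which 242 were tested, and their median was -0.13. Of these, 74 were higher (30.6%, against 36.9% of all genes) and 168 were lower. Of the 242, 7 did not overlap on the higher side (2.89%) and 8 on the lower side (3.31%), against 2.78% and 2.77% of all genes. At an unadjusted p under 0.05 there were 9 higher (3.72%, against 2.34%) and 14 lower (5.79%, against 2.17%). The lists were drawn up with earlier results of these data known, so the counts are a description and not independent support. Many of the matrix and meningeal genes are also among the 31 that the study itself reported for these females. All 30 of those that were higher are without overlap, so part of the 52 came with that choice.

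**Figure D2:**
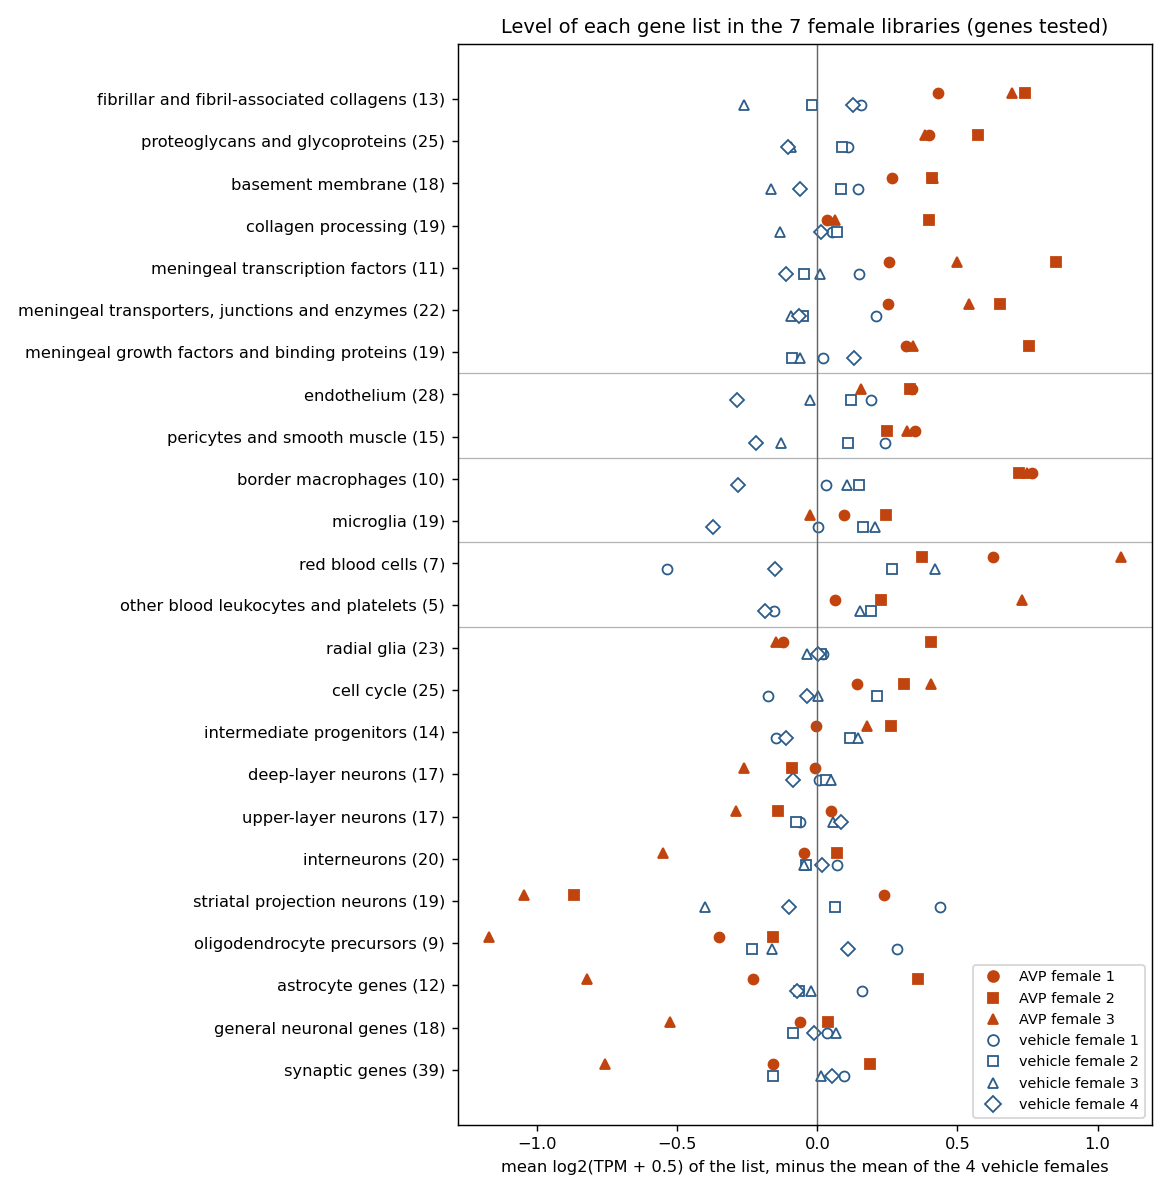
Mean log2(TPM + 0.5) of the tested genes of each list in each female library, minus the mean of the 4 vehicle females (x axis), with the number of genes tested in brackets. Filled red symbols are AVP females and open blue symbols vehicle females. The 3 AVP females lie to the right of all 4 vehicle females in the collagens, where they stand at 0.43, 0.74 and 0.69, and in the border macrophages at 0.77, 0.72 and 0.75. In the synaptic genes they stand at -0.16, 0.19 and -0.76, on both sides of the vehicle females.

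Type I and III collagen fibres are the main tensile matrix of the meninges. For the fibrillar collagen genes with the smallest unadjusted p and for periostin, a matrix protein of fibroblasts, the start regions of the genes are shown so that the letters can be read beside the values. Each runs 5′ to 3′ from 250 bases before a RefSeq transcript start to 50 bases after it (GRCm38.p6, plus strand), with any TATAAA or CCAAT, on either strand, in capitals. TATAAA is the core of the TATA box that places the start of transcription, and CCAAT is a common proximal promoter element.
Postn, chr3:54360857-54361156: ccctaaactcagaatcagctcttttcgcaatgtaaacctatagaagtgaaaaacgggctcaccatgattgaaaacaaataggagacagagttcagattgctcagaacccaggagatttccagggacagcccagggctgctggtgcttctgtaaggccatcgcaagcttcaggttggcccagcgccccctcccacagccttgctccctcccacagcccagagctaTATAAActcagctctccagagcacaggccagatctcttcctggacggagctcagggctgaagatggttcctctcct
Col3a1, chr1:45311288-45311587: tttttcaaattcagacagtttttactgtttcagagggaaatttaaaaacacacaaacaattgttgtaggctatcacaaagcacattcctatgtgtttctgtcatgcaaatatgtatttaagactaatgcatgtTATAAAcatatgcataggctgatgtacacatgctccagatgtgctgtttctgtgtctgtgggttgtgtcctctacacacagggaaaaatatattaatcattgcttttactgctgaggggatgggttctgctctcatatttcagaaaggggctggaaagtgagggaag
Col1a2, chr6:4505368-4505667: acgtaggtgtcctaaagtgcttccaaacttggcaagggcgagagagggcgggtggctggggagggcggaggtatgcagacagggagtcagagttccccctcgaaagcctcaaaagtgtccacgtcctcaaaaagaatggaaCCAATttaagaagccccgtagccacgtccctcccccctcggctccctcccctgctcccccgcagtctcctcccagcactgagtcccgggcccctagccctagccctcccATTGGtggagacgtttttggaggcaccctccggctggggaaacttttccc
In the Postn sequence shown TATAAA begins 26 bases before the start, in that of Col3a1 117 bases before it. Postn has another RefSeq promoter, chr3:54359017-54359316, which is not shown. That one holds 0 TATAAA and 1 CCAAT, the latter as its reverse complement. Col1a2 holds CCAAT 109 bases before the start and its reverse complement at the start itself. Of the 127 tested matrix and meningeal genes, 90 matched the RefSeq table by symbol, with 110 promoters. TATAAA was in 9.09% of these and in 13.6% of all 32851 promoters of that length, and CCAAT in 32.7% and 37.4%. The lists thus held neither motif more often than promoters at large, and a match is a description of the letters.

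The fibrillar and fibril-associated collagens were higher with AVP in 13 of 13 tested genes of 16 listed, with a median of 0.65. Of these, 7 did not overlap (53.8%) and 8 had an unadjusted p under 0.05. Col3a1, the type III chain (ENSMUSG00000026043, chromosome 1 from 45311538 to 45349706), stood at 47.9, 68.1 and 89.5 TPM in the AVP females. In the vehicle females it stood at 34.6, 32.6, 35.3 and 32.4 TPM, a narrow band below every AVP value. That was a log2 fold change of 0.97 (limma, standard error (SE) 0.19, unadjusted p = 0.000729, adjusted p = 0.998). The type I chains were 0.86 higher for Col1a2 and 0.77 higher for Col1a1 on the same scale. The type V chains Col5a2 and Col5a1, which start type I fibrils, were 0.69 and 0.65 higher, and the beaded-filament chains Col6a2 and Col6a1 0.79 and 0.58. In all 7 of these genes the groups did not overlap. The labels number the libraries in a run from 1 to 8 and another from 13 to 20. In the 3 female libraries of the former, AVP female 1 against vehicle females 1 and 2, the median of the list was 0.35, and in the 4 of the latter it was 0.83.

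Of the genes that fold, cross-link and trim collagen, 12 of 19 tested were higher with AVP and the median was 0.07. Without AVP female 2 it was -0.09 with 8 of 19 higher, and without AVP female 3 it was 0.26. Serpinh1, the collagen chaperone HSP47, stood at 86.1, 95.8 and 86.5 TPM under AVP against 66.0, 67.9, 61.2 and 55.5 TPM under vehicle. That is a log2 difference of 0.51 (limma, SE 0.10, adjusted p = 0.998) with no overlap. The prolyl isomerase Fkbp10 was 0.41 higher and the lysyl hydroxylase Plod1 0.33 higher, both without overlap. The procollagen peptidase enhancer Pcolce was at 7.71, 9.23 and 11.3 TPM under AVP against 9.21, 7.78, 6.01 and 4.61 TPM under vehicle, so its groups overlapped. Among those lower were Plod3, P4ha2 and Bmp1, by 0.21, 0.18 and 0.07 on the log2 scale, none with an unadjusted p under 0.05.

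The small leucine-rich proteoglycans, which coat collagen fibrils, were among the secreted matrix genes without overlap. Decorin (Dcn, ENSMUSG00000019929, chromosome 10 from 97479609 to 97518143) was at 46.9, 68.7 and 65.9 TPM under AVP against 28.7, 28.2, 34.0 and 30.6 TPM under vehicle. Its mean of 60.5 ± 11.9 TPM (SD, n = 3) against 30.4 ± 2.63 TPM (SD, n = 4) was a log2 difference of 0.97 (limma, SE 0.15, adjusted p = 0.998). The groups did not overlap. Osteoglycin (Ogn) and lumican (Lum), a neighbour of Dcn on chromosome 10, were 1.04 and 1.02 higher without overlap. Ogn stood at 17.9 to 20.1 TPM in the AVP females and at 6.18 to 11.4 TPM in the vehicle females. Periostin (Postn), shown above, was at 24.4, 37.5 and 28.7 TPM under AVP against 13.8, 12.4, 12.3 and 15.8 TPM under vehicle, without overlap. Biglycan (Bgn) was 0.72 higher and the fibulin Efemp1 0.97 higher, again without overlap. Over the list, 22 of 25 tested genes were higher, 8 did not overlap and the median was 0.41. Elastin (Eln) and tenascin C (Tnc) were within 0.1 of no difference, at -0.03 and -0.07.

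The basement membrane list was higher in 16 of 18 tested genes, with a median of 0.40 and 8 genes not overlapping (44.4%). The nidogens, which tie laminin to collagen IV, were among them. Nid2 stood at 21.8, 28.0 and 33.5 TPM under AVP against 17.9, 15.9, 12.7 and 18.4 TPM under vehicle, a log2 difference of 0.75 (limma, SE 0.18, adjusted p = 0.999). Nid1 was 0.71 higher. The ubiquitous collagen IV chain Col4a1 stood at 81.4, 74.2 and 68.7 TPM under AVP against 60.1, 54.5, 49.7 and 40.2 TPM under vehicle, 0.56 higher without overlap. The laminin chains Lamb1 and Lama1 were 0.42 and 0.58 higher. Col15a1 was the lowest member at -0.44, with an unadjusted p of 0.121.

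**Figure D3:**
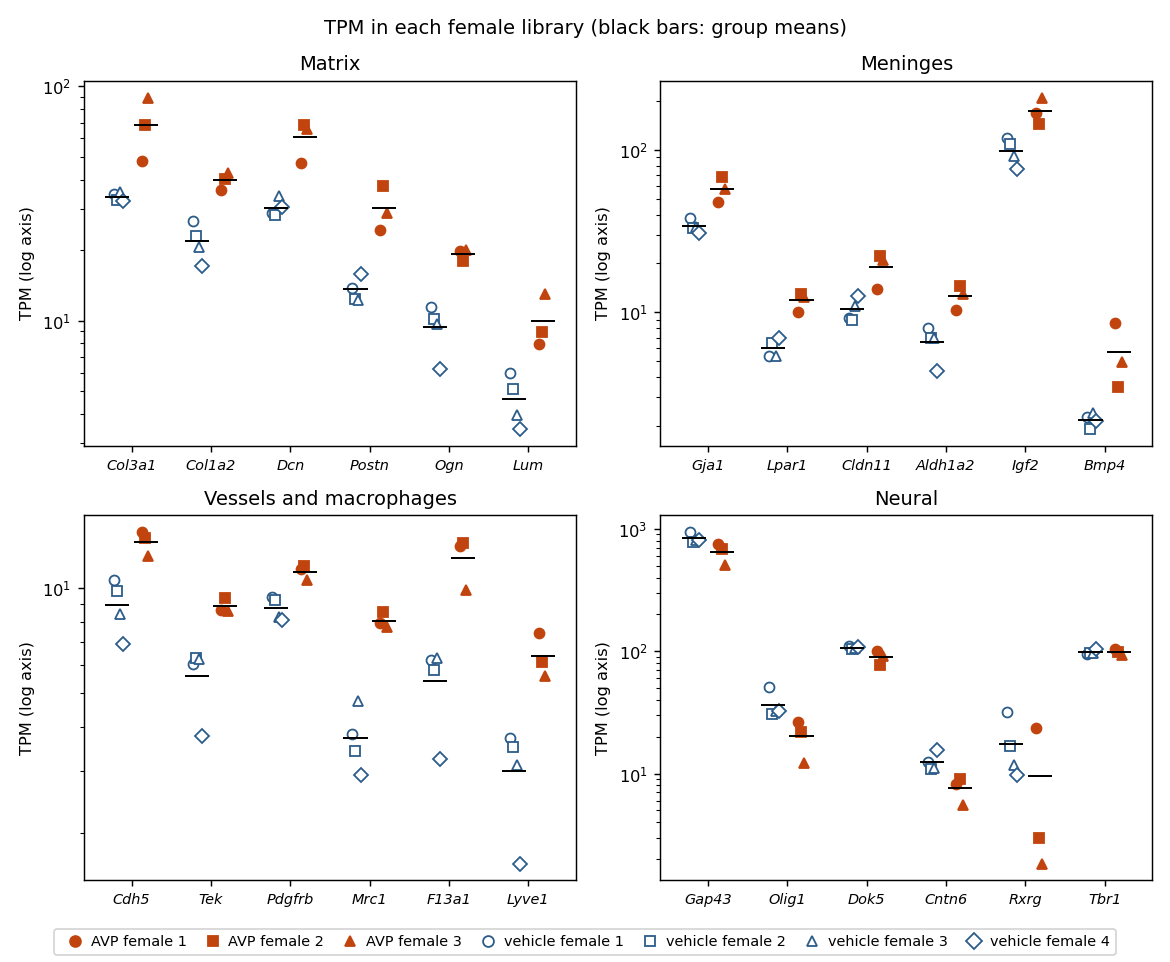
TPM (log axis) of 6 genes in each of 4 groups in the 7 female libraries, vehicle females as open blue symbols at the left of each gene and AVP females as filled red symbols at its right, with black bars for the group means. For the matrix, meningeal, vessel and macrophage genes drawn, every AVP value is above every vehicle value. Such genes were 40.9% of the matrix and meningeal, 23.3% of the vessel and 27.6% of the macrophage genes tested. Foxc1, Ptgds, Cldn5, Acta2 and Cd163, which overlap, are not drawn. Gap43, Olig1, Dok5 and Cntn6 are lower with AVP without overlap, whereas Tbr1 and Rxrg overlap.

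Among transcription factors of the meninges, 10 of 11 tested genes of 16 listed were higher with AVP and the median was 0.57. It was 0.18 within library numbers 1 to 8 and 0.81 within 13 to 20. Tbx15 stood at 2.77, 2.65 and 3.16 TPM under AVP against 1.25, 0.924, 1.43 and 0.868 TPM under vehicle, a log2 difference of 1.07 (limma, SE 0.21, adjusted p = 0.998). Tbx18, Prrx1 and Osr1 were 0.96, 0.69 and 0.75 higher, all without overlap. Foxc1, needed for the meninges to form, was at 1.90, 3.42 and 3.15 TPM under AVP against 2.35, 1.70, 1.66 and 1.36 TPM under vehicle. Its groups overlapped through AVP female 1.

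Genes of meningeal transport, junctions and enzymes had a median of 0.66. Of 22 tested, 20 were higher, 10 did not overlap and 13 had an unadjusted p under 0.05. Connexin 43 (Gja1, chromosome 10 from 56377330 to 56402513), a gap junction protein also made by radial glia, stood at 47.6, 67.8 and 57.3 TPM under AVP. Its vehicle values were 38.4, 33.0, 33.6 and 30.6 TPM, a log2 difference of 0.75 (limma, SE 0.14, adjusted p = 0.998). The lysophosphatidic acid receptor Lpar1 was at 10.1, 13.1 and 12.5 TPM against 5.40, 6.52, 5.38 and 6.99 TPM, 0.91 higher. Aldh1a2, which makes the retinoic acid that the meninges release, was 0.90 higher, and the tight junction claudin Cldn11 0.81 higher. The GABA and organic anion carriers Slc6a13 and Slc22a6 were 0.71 and 0.91 higher. In all 6 genes the groups did not overlap. Ptgds, the abundant prostaglandin D synthase of the arachnoid, was different. It stood at 227, 197 and 306 TPM under AVP against 351, 220, 127 and 159 TPM under vehicle, with its highest value in vehicle female 1. In the mean level of the list, vehicle female 1 also lay above the other vehicle females, at 0.21 against -0.05 to -0.09.

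The meningeal growth factors and their binding proteins were higher in 19 of 19 tested genes, with a median of 0.46 and 10 not overlapping (52.6%). Igf2, a fetal growth factor, stood at 168, 143 and 210 TPM under AVP against 118, 108, 91.3 and 76.0 TPM under vehicle. On the log2 scale it differed by 0.82 (limma, SE 0.18, adjusted p = 0.998). The untranslated RNA H19, expressed from the maternal allele of the imprinted domain on chromosome 7 that also holds Igf2, was named for its own difference and not as a member of a list. It stood at 129, 122 and 174 TPM under AVP against 78.7, 89.6, 78.8 and 70.2 TPM under vehicle, 0.82 higher. The BMP ligands Bmp4, Bmp6, Bmp5 and Bmp7 were 1.12, 0.82, 0.70 and 0.60 higher, each without overlap. Bmp4 was highest in AVP female 1, at 8.56 TPM against 3.47 and 4.98 TPM in the other AVP females and 1.91 to 2.40 TPM in the vehicle females. Cxcl12, the meningeal chemokine that holds Cajal-Retzius cells and interneurons near the surface, was 0.63 higher.

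**Figure D4:**
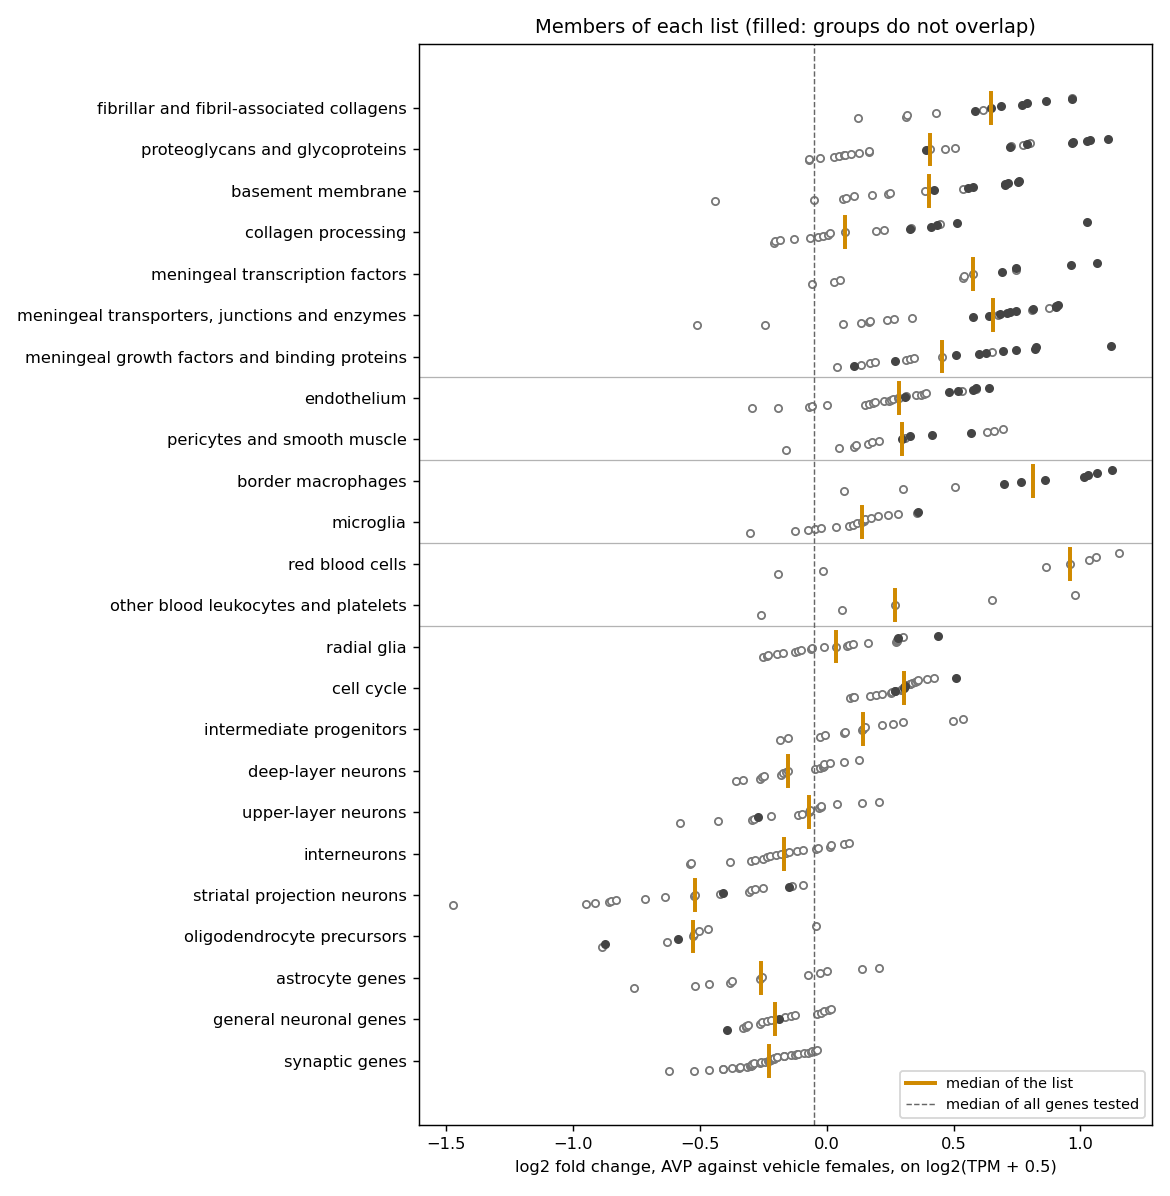
Log2 fold change between AVP and vehicle females (x axis, on log2(TPM + 0.5)) of every tested member of each list, 1 point a gene. Filled points are genes whose groups do not overlap, orange bars are list medians and the dashed line is the median of all genes tested at -0.05. The collagens all lie right of 0 and the synaptic genes all left of it, but 7 of the 13 collagens and 0 of the 39 synaptic genes are filled.

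Endothelial genes were higher with AVP in 24 of 28 tested, by a median of 0.28. Of these, 6 did not overlap (21.4%). VE-cadherin (Cdh5), the adhesion protein of endothelial junctions, stood at 14.4, 13.8 and 12.3 TPM under AVP against 10.5, 9.76, 8.39 and 6.92 TPM under vehicle. This was a log2 difference of 0.59 (limma, SE 0.17, adjusted p = 0.999). The angiopoietin receptor Tek, the VEGF receptor Kdr and the junction protein Pecam1 were 0.64, 0.52 and 0.48 higher without overlap. The barrier claudin Cldn5 overlapped, at 91.4, 84.7 and 101 TPM under AVP against 86.8, 81.4, 69.3 and 50.5 TPM under vehicle. Vehicle female 4 had the lowest level of the list, at -0.29 relative to the vehicle mean. Without that library the list median was 0.22.

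Pericyte and smooth muscle genes were higher in 14 of 15 tested, by a median of 0.30, with 4 not overlapping. The pericyte receptor Pdgfrb stood at 11.3, 11.5 and 10.5 TPM under AVP against 9.42, 9.22, 8.22 and 8.09 TPM under vehicle, a log2 difference of 0.33 (limma, SE 0.13, adjusted p = 0.999). Rgs5 was 0.30 higher and vitronectin (Vtn) 0.57 higher, both without overlap. The smooth muscle actin Acta2 overlapped, at 6.37, 3.72 and 8.79 TPM against 5.31, 6.04, 2.50 and 1.71 TPM.

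The border macrophage genes that passed the filter were all higher in the AVP females, microglial genes in part. Of 17 border macrophage genes, 10 were tested, all 10 were higher with AVP, 7 did not overlap and the median was 0.81. That median depended on the filter, at 0.51 with no filter and 0.50 with a filter of 5 TPM in every library. The scavenger receptor Mrc1, a defining marker, stood at 7.91, 8.50 and 7.72 TPM under AVP against 3.83, 3.42, 4.74 and 2.92 TPM under vehicle. Factor XIII A (F13a1) was at 13.2, 13.4 and 9.82 TPM under AVP against 6.23, 5.82, 6.31 and 3.25 TPM under vehicle, 1.12 higher. The platelet factor Pf4, the hyaluronan receptor Lyve1 and the endocytic adaptor Dab2 were 1.07, 1.01 and 0.70 higher without overlap. Cd163, another defining marker, was under the filter at 0.898, 1.53 and 0.647 TPM under AVP against 1.11, 1.12, 0.823 and 0.526 TPM under vehicle, and it overlapped. The level of the list was 0.72 to 0.77 above the vehicle mean in the 3 AVP females and between -0.28 and 0.15 in the vehicle females. The lowest was vehicle female 4, and without it the list median was 0.63.

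All 19 microglial genes were tested. Of these, 14 were higher with AVP, 1 did not overlap, 0 had an unadjusted p under 0.05 and the median was 0.14. The purinergic receptor P2ry12 stood at 3.61, 3.84 and 2.46 TPM under AVP against 2.18, 2.24, 4.75 and 2.13 TPM under vehicle. Cx3cr1 and Csf1r were 0.12 and 0.20 higher with overlap. Without vehicle female 4 the median was -0.02, and without AVP female 2 it was 0.05. The difference between the macrophage and the microglial list was not tested.

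Among red cell genes, 7 of 24 listed were tested, and 5 of them were higher at an unadjusted p under 0.05, although 0 of 7 were free of overlap. The adult beta globin Hbb-bs stood at 3642, 2334 and 6768 TPM under AVP against 1035, 2446, 2813 and 1650 TPM under vehicle. The difference was 1.06 on the log2 scale (limma, SE 0.42, adjusted p = 0.999). Hba-a1, Hba-a2, Hbb-bt and the heme enzyme Alas2 were 0.96, 1.04, 1.15 and 0.86 higher. The Hba-a1 and Hba-a2 transcripts are close to identical, as are Hbb-bs and Hbb-bt, so the division between the copies is uncertain. AVP female 3 was highest and vehicle female 1 lowest in each of the 4 globins. Without AVP female 3, vehicle female 1 or vehicle female 4, none of the 7 genes had an unadjusted p under 0.05. The list median was 0.63 without AVP female 3 and 0.73 without vehicle female 1. Leukocyte genes were scarce: 5 of 19 were tested, and the pan-leukocyte Ptprc stood at 0.493 to 0.939 TPM in the AVP females and 0.492 to 0.877 TPM in the vehicle females.

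Markers of tissue next to the dorsal forebrain are given beside these groups. The choroid plexus marker Ttr stood at 2197, 13.9 and 1348 TPM under AVP against 16.6, 922, 24.4 and 3.23 TPM under vehicle. It was high in AVP females 1 and 3 and vehicle female 2, and low in AVP female 2. By mean log2 level AVP female 2 was the highest library in 6 of the 7 matrix and meningeal lists. By summed TPM, AVP female 3 stood above it in the collagens (256.2 against 249.1 TPM), transporters (539.5 against 447.7 TPM) and growth factors (828.9 against 825.8 TPM). AVP female 2 was highest by that measure in the others. The list of 17 choroid plexus genes, of which 10 were tested, summed to 73.4 to 2373 TPM in the AVP females and 35.1 to 1017 TPM in the vehicle females, with a median log2 fold change of 1.29. Of its 2 genes without overlap, Otx2 was 1.71 higher and Enpp2 0.65 higher. The 17 bone, cartilage, muscle and skin genes, of which 4 were tested, summed to 17.7 to 23.2 TPM under AVP and 20.4 to 23.3 TPM in 3 of the vehicle females, with 20.02 TPM in vehicle female 3, and the bone factor Sp7 and the keratin Krt14 were under 1 TPM in all 7. Of 17 thalamic and midbrain genes, 7 were tested and 5 were higher with AVP, with a median of 0.24. Among the 7, 1 was higher without overlap (14.3%, against 2.78% of all genes). Lef1 is on this list and also on the hippocampal and cortical hem list. The highest log2 fold change was 0.62 in both lists, and each had 1 gene higher without overlap. The level of the thalamic and midbrain list was 0.17, 0.48 and 0.06 in the AVP females and -0.04 to 0.03 in the vehicle females. Without AVP female 2 its median was 0.0067. The members Gbx2, Pax7 and Pou4f1 were under 1 TPM in every female library. The part that differences in dissection played in the meningeal, vessel and macrophage values was not tested.

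Radial glia were near the median of all genes. Of 23 genes tested, 12 were higher with a median of 0.04. The progenitor factor Pax6 stood at 18.97, 32.3 and 23.7 TPM under AVP against 17.1, 22.0, 17.3 and 24.5 TPM under vehicle. Nes and Gli3 were 0.28 and 0.44 higher without overlap, and Sox2, at 35.6, 42.3 and 37.9 TPM against 33.4 to 39.8 TPM, differed by 0.04. The level of the list was 0.40 in AVP female 2 and -0.12 and -0.15 in the other AVP females. Without AVP female 2 the median was -0.07.

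Cell cycle genes were higher in 25 of 25 tested, by a median of 0.30, with 4 not overlapping (16%). Cdk1, the kinase that starts mitosis, stood at 61.5, 66.5 and 80.5 TPM under AVP against 38.0, 60.1, 48.3 and 49.6 TPM under vehicle. On the log2 scale it differed by 0.51 (limma, SE 0.16, adjusted p = 0.999). The replication helicase subunits Mcm2 and Mcm4 were 0.30 and 0.31 higher without overlap, and the topoisomerase Top2a was 0.42 higher with overlap. Mki67, a marker of cycling cells, overlapped at 11.9, 16.9 and 14.8 TPM against 8.36, 10.8, 11.6 and 12.97 TPM. Cycling cells of any type contribute to this list. Of the intermediate progenitor genes, Neurog2 was 0.50 higher and Eomes (Tbr2) 0.54 higher, both with overlap. The list median was 0.14, and 0 of 14 genes were free of overlap.

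Cortical neuron lists lay close to all genes. Deep-layer genes had a median of -0.15 with 0 of 17 free of overlap. Tbr1, the marker of layer 6 neurons, stood at 104, 99.4 and 93.4 TPM under AVP against 94.1, 96.4, 97.5 and 104 TPM under vehicle, a difference of 0.01 (SE 0.08). Ldb2 and Rprm were 0.36 and 0.25 lower, with overlap. Upper-layer genes had a median of -0.07. The adaptor Dok5 stood at 99.4, 76.8 and 91.1 TPM under AVP against 109, 104, 106 and 109 TPM under vehicle, -0.27 on the log2 scale without overlap. The hippocampal and cortical hem genes had a median of -0.02 over 9 tested, which was -0.57 without AVP female 2 and 0.29 without AVP female 3. Wnt8b, a hem signal, reached 1.86 TPM in AVP female 2 and at most 0.514 TPM in any other female library. Among Cajal-Retzius genes, 8 of 9 were higher with a median of 0.24 (0.03 without AVP female 2), 0 without overlap, and the list stood at 0.72 in AVP female 2 against -0.16 to 0.17 in the other female libraries. Reln stood at 55.5, 100 and 84.5 TPM against 63.8 to 102 TPM.

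General neuronal genes were lower in 16 of 18, with a median of -0.20. Without AVP female 3 the median was -0.07 and 10 of 18 were lower. Gap43, a growth cone protein, stood at 746, 682 and 502 TPM under AVP against 941, 780, 804 and 814 TPM under vehicle. This was a log2 difference of -0.39 (limma, SE 0.14, adjusted p = 0.999), and the groups did not overlap. Stmn2, which regulates microtubules in axons, was -0.31 with overlap, while Map2 and Dcx differed by -0.01 and -0.04. Synaptic genes were lower in 39 of 39, by a median of -0.23, but the groups overlapped in every one. The level of the list was -0.76 in AVP female 3, -0.16 in AVP female 1 and 0.19 in AVP female 2, against -0.16 to 0.10 in the vehicle females. Without AVP female 3 the median was 0.03 and 16 of 39 genes were lower. Without AVP female 2 it was -0.43 and 14 did not overlap on the lower side (35.9%, against 16.2% of all genes without that library). With each library's trend on length and GC content removed, a setting chosen after seeing the data, 39 of 39 were lower, the median was -0.19 and the collagen median was 0.71. Grin1 and Cplx1 were the only synaptic genes with an unadjusted p under 0.05, at -0.47 and -0.30.

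Contactin 6 (Cntn6), a neuronal adhesion molecule, was the lower gene on the study's own female list of 31. It stood at 8.14, 9.05 and 5.501 TPM under AVP against 12.4, 10.99, 11.1 and 15.5 TPM under vehicle, a log2 difference of -0.70 (limma, SE 0.20, adjusted p = 0.999). Of the 11 contactins and partners tested, it was the 1 gene without overlap. The rest of the study's list comprised 30 genes that were higher with AVP without overlap, between 0.51 and 1.11 on the log2 scale. The study chose the list on these libraries, so its count is no independent evidence.

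By list median, the largest neural differences were in striatal projection neuron genes and oligodendrocyte precursor genes. Striatal genes were lower in 19 of 19, with a median of -0.52, yet 2 did not overlap and 1 had an unadjusted p under 0.05. Rxrg stood at 23.8, 2.99 and 1.83 TPM under AVP against 31.8, 16.6, 11.7 and 9.67 TPM under vehicle, and the dopamine receptor Drd2 at 4.31, 0.902 and 0.861 TPM against 6.14, 3.90, 2.08 and 2.69 TPM. In both genes AVP females 2 and 3 lay below every vehicle library, while AVP female 1 lay between the highest and the next vehicle library. The level of the list was 0.24 in AVP female 1, -0.87 in AVP female 2 and -1.05 in AVP female 3, against -0.40 to 0.44 in the vehicle females. Within library numbers 1 to 8 the list median was -0.01, and within 13 to 20 it was -0.70. Interneuron genes, several of which are also made in the ventral forebrain, had a median of -0.17. Without AVP female 3 it was -0.0003 with 10 of 20 genes lower, and without AVP female 2 it was -0.32 with 20 of 20 lower. Npy stood at 391, 212 and 287 TPM under AVP against 440, 383, 337 and 539 TPM under vehicle, with overlap.

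Oligodendrocyte precursor genes were lower in 9 of 9 tested, with a median of -0.52, and 2 did not overlap (22.2%, against 2.77%). Olig1 stood at 26.3, 22.1 and 12.3 TPM under AVP against 50.7, 30.7, 32.4 and 32.3 TPM under vehicle, a log2 difference of -0.87 (limma, SE 0.27, adjusted p = 0.999). Olig2 was -0.59 without overlap. Gpr17, a receptor of committed precursors, was -0.88 with overlap. Pdgfra, which meningeal fibroblasts also express, differed by -0.04. AVP female 3 was lowest, at -1.17 for the list, and without it the median was -0.29, while without AVP female 2 it was -0.89. Astrocyte genes overlapped in all 12 tested, with a median of -0.26, and Aldh1l1 was -0.38. Without AVP female 3 that median turned to 0.12, and without AVP female 2 it was -0.59.

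Transcripts of the infused peptide and its receptors were close to absent. Avp was at most 0.122 TPM under AVP and 0.366 TPM under vehicle, and Oxt at most 0.447 and 0.644 TPM. Avpr2, the renal receptor, was listed at 0 in all 7 libraries, and Avpr1b at 0 in the 3 AVP females and at most 0.0131 TPM under vehicle. The vascular and neuronal receptor Avpr1a stood at 0.396, 0.252 and 0.0599 TPM under AVP against 0.775, 0.579, 0.826 and 0.292 TPM under vehicle. Oxtr was at 0.282 to 1.18 TPM and 0.609 to 1.195 TPM. The water channel Aqp1, made mainly by choroid plexus, stood at 18.2, 6.71 and 9.54 TPM under AVP against 2.37, 10.7, 2.47 and 3.35 TPM under vehicle. The difference was 1.34 on the log2 scale (limma, SE 0.51, adjusted p = 0.999), with overlap through vehicle female 2, the vehicle library high in Ttr. Aqp4, the astrocyte channel, was at 1.33, 1.94 and 0.517 TPM against 2.56, 1.11, 1.95 and 1.75 TPM. Aqp11 and Lnpep, the peptidase that cleaves oxytocin and vasopressin, differed by -0.06 and 0.23, and Aqp5 and Aqp9 were under the filter. Immediate early genes had a median of 0.04 with 0 of 13 free of overlap (-0.13 without AVP female 2), and hypoxia and glycolysis genes -0.09 with 0 of 17.

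By smallest unadjusted p among genes without overlap, 8 genes on each side were picked over the whole transcriptome. On the higher side these were Postn, Dcn, H19, Cped1, Col1a2, Mrc1, Lpar1 and Gja1. Among those on the lower side was Fabp3, a fatty acid carrier, at 109, 81.8 and 76.0 TPM under AVP against 142, 119, 127 and 125 TPM under vehicle, -0.54 on the log2 scale. Akap7, a kinase anchor, was -0.39, the nicotinamide methyltransferase Nnmt -0.87 and the axonemal dynein chain Dnah7a -0.71. Mroh1 was -0.85. The other 3 were short or duplicated features. Gm13306, whose chromosome 4 region holds near-identical copies, was -1.42, so its TPM depend on how reads were divided between copies. The 139-nt processed pseudogene Gm49195 and the 99-nt microRNA gene Gm27527 were -1.80 and -3.30, and Gm27527 was listed at 0 in 2 of the AVP females. Without adjustment the p of these 8 ranged from 0.000804 to 0.00427.

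Males served to test whether the female differences were larger than theirs. The library labelled vehicle male 3 had 266 TPM of Xist and 0.489 TPM of summed Y-linked genes, a female pattern, so counts and list medians are given with and without it. The interaction of treatment and sex over the 15 libraries called 0 of 15078 genes, with a smallest adjusted p of 0.896. Per the paper there were fewer litters than sequenced brains, so males and females shared dams. No label pairs them, and the fit took the 15 libraries as independent. At an unadjusted p under 0.05 the log2 change was larger in females for 380 genes (2.52%) and smaller for 244 (1.62%). With median-of-ratios scaling these counts were 308 and 560, and without the library labelled vehicle male 3 they were 234 and 206. Of 28 endothelial genes, 8 were among the larger and 0 among the smaller, or 5 of 29 and 0 without that library. Of 10 border macrophage genes the larger were 4, or 2 without it, and of 13 collagens 2, or 0 without it. Of 9 choroid plexus genes the larger were 3, or 4 of 11 without it. Of 19 collagen processing genes they were 4, or 3 without it. General neuronal genes went the other way, with 0 of 18 larger and 4 smaller, or 0 and 2 without that library. In males the list medians were 0.12 for the collagens, -0.04 for border macrophages and -0.23 for endothelium, against -0.10 over all genes. Without the library labelled vehicle male 3 the 3 lists stood at 0.12, -0.0046 and -0.21 in males. The striatal list stood at 0.10 in males, and at -0.13 without that library. No gene was shown to respond differently in the sexes after adjustment over the 15 libraries, and no list was tested for such a difference.

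**Figure D5:**
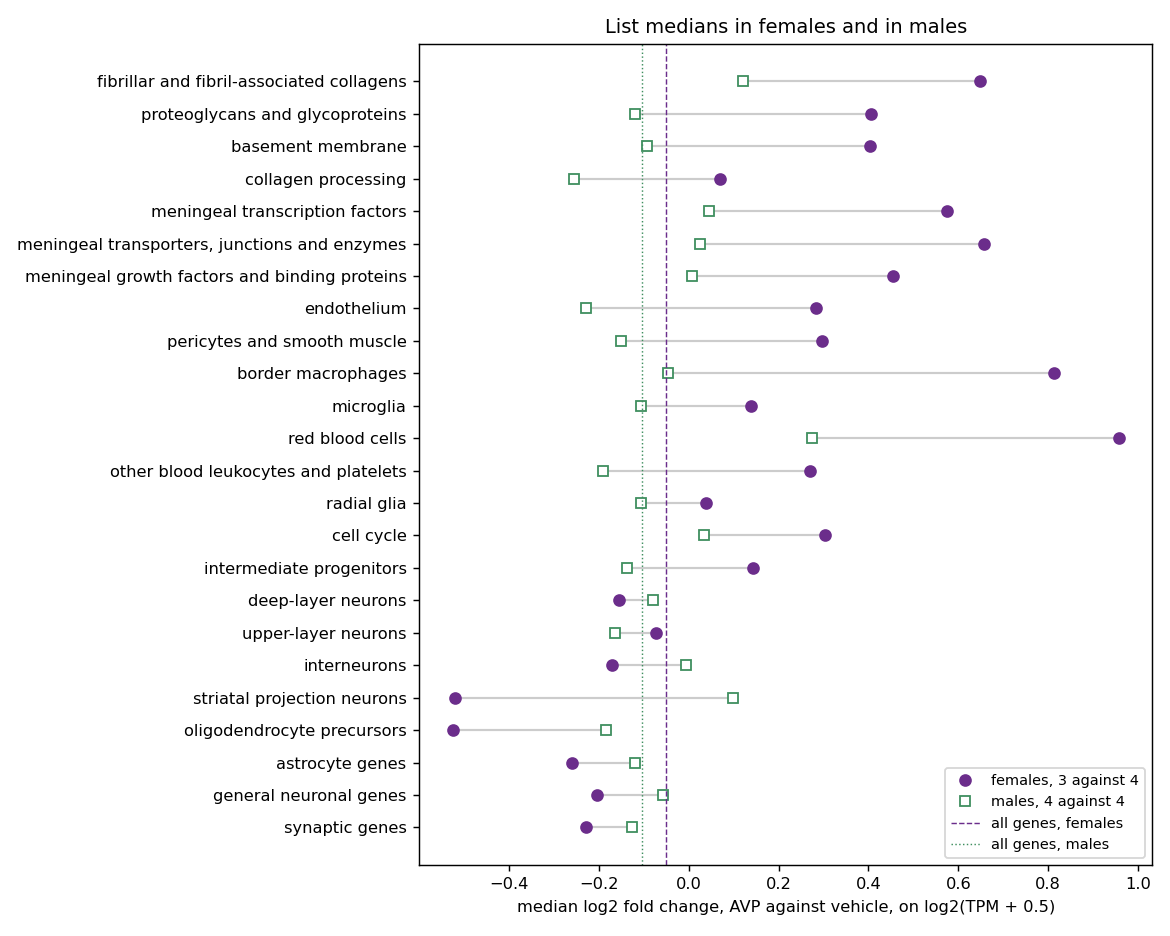
Median log2 fold change of each list between AVP and vehicle in females (filled purple circles, 3 against 4 libraries) and in males (open green squares, 4 against 4, all under their labels), with a dashed and a dotted line for the medians of all genes in females and males, -0.05 and -0.10. The collagens stand at 0.65 in females and 0.12 in males and the endothelium at 0.28 and -0.23, while the deep-layer neurons stand at -0.15 and -0.08.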

How the data were processed

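Total RNA of E18 dorsal forebrain was made into stranded mRNA libraries, 1 brain each. Per the paper and the submitters' processing notes, the authors trimmed reads with Trim Galore 0.4.1 (checked with FastQC 0.5.2) and quasi-mapped them to GENCODE M16 transcripts (GRCm38) with kallisto 0.43.1, with bias correction. They tested them with sleuth 0.29.0. Sleuth was not run here. Of their own comparisons, the female list of 31 genes was described, and many of its genes are also members of the other lists. The deposited table names no unit, and its equal library totals mark it as the authors' TPM, with no further scaling between libraries. TPM keep no depth. TPM of 133849 transcripts were summed to 53337 genes of GENCODE M21, and 404 transcripts without a gene there (0.154% to 0.199% of TPM) were left out.

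Females were fitted alone, with treatment as the only term, by limma 3.58.1 (R 4.3.3) with a mean-variance trend, two-sided, with Benjamini-Hochberg adjustment. The interaction used all 15 libraries. Alternatives were other pseudocounts (0.1 and 1 for 0.5), filters, scalings, fits and single libraries left out. Removal of length and GC trends, and of genes under 200 nt, was chosen after seeing the data. The fits were tested on simulated data. Named genes were any past the threshold, the 8 higher and 8 lower with the smallest unadjusted p among those without overlap and with a mean of at least 2 TPM, up to 4 per list with the smallest p, the defining markers, and all peptide, receptor and aquaporin genes. The lists and members were chosen with earlier results of these data known. Figures used matplotlib 3.10.9.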

Additional observations from a re-analysis of the deposited data

Results flagged for a closer look

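In groups of 4 libraries, a value was picked out where its gap to the nearest of the others took most of the group's range (Dixon's criterion). Over 175 such groups, 11 values were picked out, and 8.75 would be by chance, which flags about 1 group in 20. Vehicle female 4 was low in F13a1 at 3.25 TPM, in Tek at 3.79 TPM and in Fcer1g, an Fc receptor chain of macrophages, at 5.39 TPM, and high in Cntn3 at 7.48 TPM. Vehicle female 1 was high in Olig1 at 50.7 TPM, in the neuronal Crmp1 at 984 TPM and in the mean log2 level of the meningeal transporter list, at 0.21 above the vehicle mean. Vehicle female 3 was low in Mroh1 at 17.5 TPM, and vehicle female 2 high in Ndrg1 at 87.8 TPM. The library labelled vehicle male 3 was far above the other vehicle males in Xist, at 266 TPM, and far below them in the summed Y-linked genes, at 0.489 TPM. That library enters only the male and interaction values.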

How the results depend on the processing

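TPM hold no depth, 3 against 4 libraries cannot give an exact p under 0.0286, and single libraries moved many values. The count past an adjusted p of 0.05 was 0 under every other setting, an adjusted p of 0.1 included, and 0 to 6 with 1 female library left out: Mir1198 without vehicle female 2, n-R5s197 without AVP female 3, and 6 RNAs of 78 to 160 nt without vehicle female 4. The interaction called 0 to 1 genes with 1 library left out, the 1 without vehicle male 1. The cause of these shifts was not tested. No paired analysis was possible because the labels give no replicate numbers that groups share.

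Unadjusted counts were 711 higher and 529 lower with no filter and 159 higher with a filter of 5 TPM in every library, which change the genes tested, 635 lower in 1 fit of 15 libraries, and 564 higher with the length and GC trend removed (chosen after seeing the data). With 1 library left out they ran from 276 to 387 higher and 126 to 1314 lower. Counts without overlap were 687 higher and 665 lower with no filter, 163 higher with the 5 TPM filter, and 549 to 1064 higher and 535 to 2476 lower with 1 library left out. The lower counts were largest without AVP female 2.

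Within library numbers 1 to 8, list medians were 0.35 for collagens, 0.29 for meningeal transporters, 0.24 for growth factors, 0.18 for meningeal transcription factors, 0.14 for cell cycle, -0.014 for striatal, -0.15 for radial glia and 0.089 for deep-layer genes, the last 2 of opposite sign to the full comparison. Growth factors were 0.30 and meningeal transcription factors 0.26 with the 5 TPM filter, border macrophages 1.06 with a pseudocount of 0.1, 0.51 with no filter and 0.50 with the 5 TPM filter, and red cells 0.074 with no filter. With 1 library left out, medians ranged from 0.58 to 0.77 for collagens, 0.49 to 0.68 for meningeal transporters, 0.35 to 0.60 for growth factors, 0.63 to 0.95 for border macrophages, 0.22 to 0.35 for endothelium, 0.20 to 0.34 for pericytes, 0.63 to 1.23 for red cells, 0.22 to 0.37 for cell cycle, -0.79 to -0.33 for striatal and -0.43 to 0.035 for synaptic, -0.074 to 0.18 for radial glia, -0.14 to 0.0063 for deep-layer, -0.59 to 0.12 for astrocyte, -0.44 to 0.11 for contactin and -0.11 to 0.020 for hypoxia genes. The synaptic, deep-layer, astrocyte, contactin, hypoxia and hippocampal lists turned sign without AVP female 3, and collagen processing and immediate early genes without AVP female 2. The hippocampal list also turned without AVP female 1 (0.10), vehicle female 2 (0.02) or vehicle female 3 (0.13). Without vehicle female 4, immediate early genes (-0.04) and microglia (-0.02) turned. The peptide and aquaporin list turned without AVP female 2 (-0.29), vehicle female 2 (-0.05) or vehicle female 4 (-0.12). Radial glia turned without vehicle female 2 (-0.02), AVP female 2 (-0.074) or vehicle female 4 (-0.01). The genes picked over the whole transcriptome were chosen for groups without overlap, so leaving out a library could not change their sign. Under the settings that kept all libraries Postn ranged from 1.07 to 1.15 and Dcn from 0.91 to 1.02.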
